A study of Mus musculus with 57 samples.

Results

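A set of 9 genes of retinoic acid (RA) response and metabolism was followed through the differentiation of mouse embryonic stem cells: Cyp26a1, Cyp26b1, Cyp26c1, Dhrs3, Rarb, Stra6, Crabp1, Crabp2 and Aldh1a2. They were chosen by name, with earlier results of these data known. They are 9 of the 55450 genes in the count table, and all 9 were found there. RNA-seq was available for 57 libraries, with 3 replicates of each of 19 conditions. The cells were the Sox1-EGFP/FoxA2mCherry line, a single clone in which EGFP reports Sox1, a neuroectoderm marker, and mCherry reports FoxA2, an endoderm marker. At D0 Sox1-FoxA2- cells were taken from serum with LIF and no RA. On days 2, 4 and 6 (D2, D4, D6) each of the 4 reporter combinations (Sox1-FoxA2-, Sox1+FoxA2-, Sox1-FoxA2+ and Sox1+FoxA2+) was sorted from N2B27 medium with 1 uM RA. The progeny were cells of the 3 reporter-positive populations, sorted at D2 and replated in RA with a serum basal medium, and were collected at D4 and D6 without a second sort. RA was thus present in every condition but D0, and RA, basal medium and loss of LIF cannot be told apart in a comparison with D0.

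RA is made from retinol by way of retinaldehyde, and Aldh1a2, a retinaldehyde dehydrogenase, catalyses the last oxidation. Stra6 is a membrane receptor for retinol-binding protein, and Dhrs3 reduces retinaldehyde back to retinol. Inside the cell RA is bound by Crabp1 and Crabp2, of which Crabp2 passes it to the nuclear receptors. The receptors, among them Rarb, bind DNA as heterodimers with the RXR proteins, and Rarb and Cyp26a1 are textbook targets of this binding. Cyp26a1, Cyp26b1 and Cyp26c1 are cytochrome P450 enzymes that oxidise and so clear RA.

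The libraries held 10170632 to 81845651 counts (median 36694379), and 14458 to 27832 genes per library had at least 1 count. Values are counts divided by DESeq2 size factors (normalized counts), as mean ± SD with n = 3 libraries per condition unless single libraries are given. In bulk samples, fewer cells of a type and less RNA per cell cannot be told apart. Foxa2 transcripts followed the gate at D2, with 1646 to 3241 normalized counts in sorted D2 Sox1-FoxA2+ libraries and 0.0 to 324 in those of Sox1+FoxA2-. The later Sox1+FoxA2+ libraries were low against their label, with Foxa2 at 214, 528 and 1091 at D4, where a Sox1+FoxA2- library reached 251, and at 0.0, 728 and 76.6 at D6. Sox1 was listed at 0 in all 57 libraries, so the Sox1 gate could not be checked by its own transcript. The study describes the replicates as biological, and the labels number them without naming separate cultures.

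The promoters of Rarb and Cyp26a1 are shown because both held a direct repeat of the kind RA receptors are known to bind. RefSeq start sites of GRCm38.p6 were available for 8 members, with 13 windows of 250 bases before to 50 bases after the start. Each window was searched on both strands for direct repeats, spaced by 1, 2 or 5 bases, of any of 4 half-sites. One half-site was AGGTCA, another was AGTTCA, the next was GGGTCA and the last was GGTTCA. Of 32851 windows of all genes, 32 (0.0974%) held a repeat with a spacer of 5, 88 (0.268%) one with a spacer of 2 and 73 (0.222%) one with a spacer of 1. Among the members, the repeat with a spacer of 5 was found in Rarb and Cyp26a1, and those with spacers of 1 and 2 were found in 0 windows. The 120 bases before each start follow 5′ to 3′ on the strand of the gene, with the repeat in capitals.
Rarb, chr14:16575477-16575596, minus strand: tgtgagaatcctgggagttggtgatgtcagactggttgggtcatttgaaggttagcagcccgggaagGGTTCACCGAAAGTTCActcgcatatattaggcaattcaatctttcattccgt
Cyp26a1, chr19:37697688-37697807, plus strand: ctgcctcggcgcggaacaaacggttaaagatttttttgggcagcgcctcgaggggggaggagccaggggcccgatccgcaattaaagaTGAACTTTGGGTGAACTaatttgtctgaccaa

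The Rarb repeat ran in the direction of the gene, at -53 to -37 from the start (chr14:16575513-16575529), inside the span that GENCODE M21 gives the gene. The Cyp26a1 repeat ran against the gene, at -32 to -16 (chr19:37697776-37697792), upstream of the annotated gene. A match describes letters in these windows and is no measurement of binding. Cyp26c1 lies on the same strand of chromosome 19 as Cyp26a1, 4399 bases upstream of it.

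After 2 days in RA, Cyp26a1, Cyp26b1 and Dhrs3 were far above D0. Cyp26a1 was at 0.0, 0.0 and 16.5 normalized counts in the D0 libraries. In the 12 sorted D2 libraries it ran from 1040 to 8951 with a median of 2868. No D2 library of any population overlapped with D0. Cyp26b1 was at 0 in all D0 libraries and at 163 to 1841 (median 746) at D2, at least 227-fold higher with the D0 level set to 3 counts per library. Dhrs3 was at 52.3, 0.0 and 0.0 at D0 and at 573 to 5393 (median 2271) at D2. Cyp26c1 was also at 0 at D0, but it stayed the lowest of the Cyp26 genes at D2, at 0.0 to 226 (median 116), and some D2 libraries overlapped with D0.

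Against D0, the mean of the 4 D2 populations was higher by 9.66 ± 1.15 (log2, SE) for Cyp26a1 (adjusted p = 0.000261), by 7.16 ± 1.44 for Dhrs3 (adjusted p = 0.0115) and by 4.81 ± 1.02 for Rarb (adjusted p = 0.0133) in edgeR's quasi-likelihood test. Crabp2 rose by 2.51 ± 0.525 (adjusted p = 0.00571), and Cyp26b1 was called as well (adjusted p = 3.96e-06), where the fitted fold of a gene at 0 is no bound. Without D0 replicate 3 the calls of Rarb and Crabp2 were lost (adjusted p = 0.0769 and 0.0532), and that of Crabp2 was also lost without D0 replicate 2 (adjusted p = 0.0522). So 5 of 9 members were called, all higher, against 7.7% of the 21037 genes tested. Stra6 missed the threshold (log2 difference 4.97 ± 1.45, adjusted p = 0.0657), although its D0 libraries (1.24, 223 and 2.07) lay below all 12 D2 libraries (929 to 6146, median 1917). Cyp26c1 (adjusted p = 0.0606), Crabp1 (1.77 ± 0.757, adjusted p = 0.19) and Aldh1a2 were not called.

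**Figure D1:**
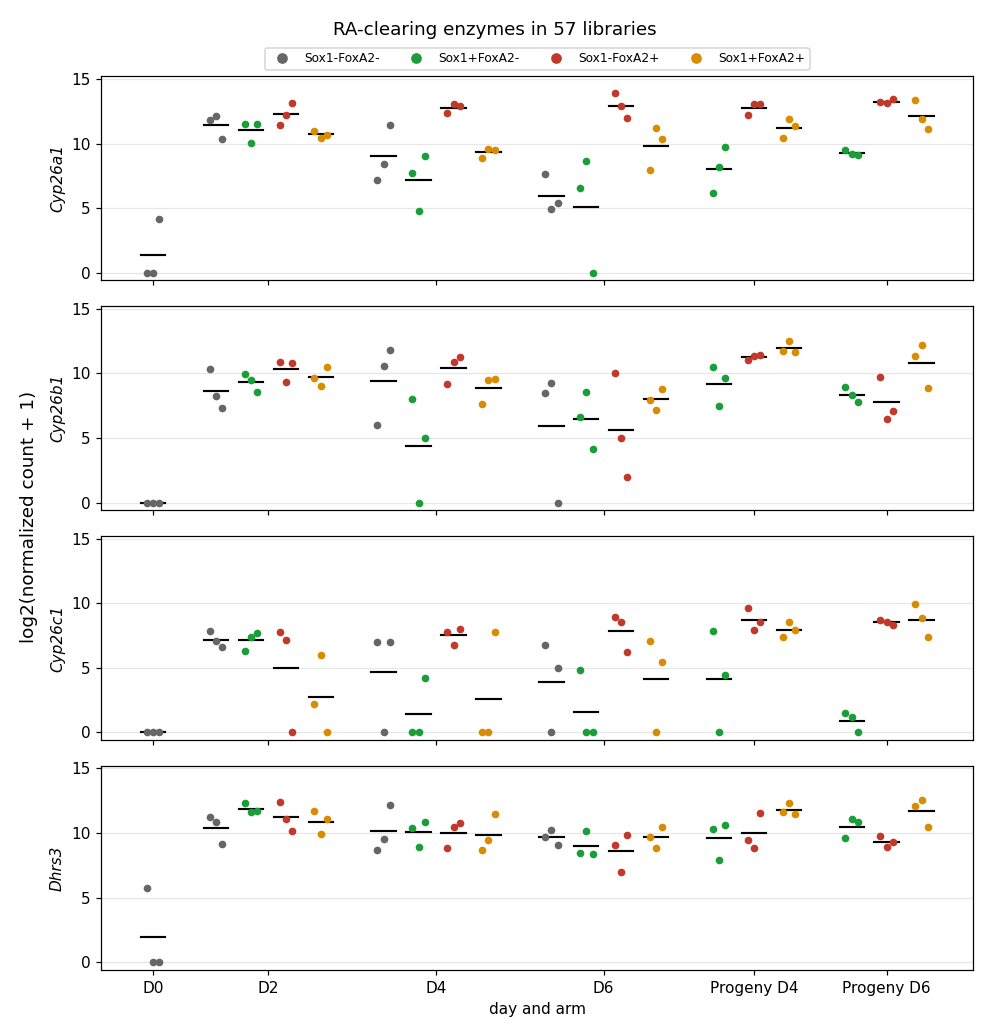
Normalized counts of Cyp26a1, Cyp26b1, Cyp26c1 and Dhrs3 in 57 libraries on a log2(normalized count + 1) axis, by day and arm. Points are libraries, black lines are the means of 3 points on this axis and colours are the reporter populations. Cyp26a1 is near 0 at D0, where 2 libraries are at 0.0, and stays at 4096 or more in the Sox1-FoxA2+ libraries of D6.

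Rarb, the receptor gene, was at 2.49, 177 and 124 normalized counts at D0 and at 781 to 5089 (median 3016) at D2. At later days it stayed between 266 and 6536 in every sorted library. Its exons share 38.4% of their bases with the antisense genes Top2b and Gm48162, and whether counting used the strand is not given in the sources used here. The other 8 members share no exon bases with another gene. Crabp1 and Crabp2 had the highest levels of the members at D0, with 452 ± 141 and 487 ± 117 normalized counts. Per kilobase of exon, Crabp1 (564) and Crabp2 (369) were also the highest members at D0, and Aldh1a2 (59.9) followed. At D2 the order per kilobase, as the mean of the 4 populations, was Crabp2 (2176), Crabp1 (2035), Cyp26a1 (1599), Dhrs3 (890), Rarb (548) and Stra6 (443), with Cyp26b1 (169), Aldh1a2 (68.1) and Cyp26c1 (63.5) below.

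In Sox1-FoxA2- cells, the gate that D0 shares, fewer members passed the test. At D2 only Cyp26a1 was called, at 3671, 4581 and 1316 normalized counts against 0.0, 0.0 and 16.5 (log2 difference 9.70 ± 2.01, adjusted p = 0.0449), 1 of 9 members against 1.93% of all genes. The call was lost when any of the 6 libraries was left out (highest adjusted p = 0.182). At D6 only Aldh1a2, which makes RA, was called. It was at 169, 237 and 0.0 at D0 and at 3766, 1220 and 1862 at D6 (3.99 ± 1.07, adjusted p = 0.0461), 1 of 9 members against 4.62% of all genes, and its call was lost in 4 of 6 cases with a library left out, up to adjusted p = 0.176 without D0 replicate 1. The D6 levels of Cyp26a1 in this gate were 196, 28.8 and 40.2, all below the D2 levels, but D6 against D2 called 0 of 9 members in edgeR (0.0188% of all genes) and 0 in DESeq2 (1.77%), with an unadjusted p under 0.05 for 2 members and 1454 of 21278 genes.

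Other genes of the pathway moved with the members at D2. Of 13 tested RA target genes on the list, 6 were higher and 0 lower than at D0, among them Hoxb1, Hoxb4, Meis1, Meis2 and Stra8. The list median was 4.74 on the log2 scale against 0.065 over all genes. The list was chosen with earlier results of these data known, so these values are a description only. Stra8, named for its stimulation by RA, was at 1294, 92.3 and 1112 at D0, and its log2 difference was 5.12 ± 0.758 (adjusted p = 0.00217). Among 11 receptors and cofactors 2 were higher, Ncoa2 and Nrip1, and 2 lower, Ncoa3 and Rarg. Rarg, another RA receptor gene, fell by 2.13 ± 0.335 (adjusted p = 0.000261). Of 21 tested enzymes and carriers, Adh5 (-1.11 ± 0.209, adjusted p = 0.00135) and Fabp5 (-1.44 ± 0.339, adjusted p = 0.00894) were lower. Of 6 pluripotent markers 4 fell, and their summed level was 25290 to 77670 at D0 and 2214 to 33360 at D2. Their part in the members' values was not tested.

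With time in RA, the ranges of Cyp26a1 in sorted Sox1-FoxA2+ and Sox1+FoxA2- libraries came apart. In the edgeR tests given below, neither this difference nor its change from D2 to D6 was called. In sorted Sox1-FoxA2+ cells it was at 2782, 4736 and 8951 normalized counts at D2, at 5280, 8454 and 7809 at D4 and at 15380, 7793 and 4096 at D6. The Sox1+FoxA2- libraries were at 2954, 1040 and 2960 at D2, at 215, 26.9 and 522 at D4 and at 93.9, 403 and 0.0 at D6. All 3 Sox1-FoxA2+ libraries were above all 3 Sox1+FoxA2- libraries at D4 and at D6, and the ranges overlapped at D2. Sox1+FoxA2+ cells were at 252, 2311 and 1334 at D6, and their range overlapped that of Sox1+FoxA2- cells.

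The carriers had the opposite order. Crabp1 in sorted Sox1+FoxA2- cells was at 9802, 5597 and 1740 at D4 and at 11726, 19555 and 2752 at D6. The Sox1-FoxA2+ libraries were at 369, 1265 and 362 at D4 and at 59.0, 950 and 561 at D6. The groups did not overlap on either day. Crabp2 was at 7947, 15266 and 4806 against 615, 963 and 862 at D4, and at 7726, 10246 and 2316 against 438, 764 and 713 at D6, again without overlap. On each of these days 5 of 9 members did not overlap. The share of all genes without overlap was not counted, so this is a description of levels only.

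In edgeR 0 of 9 members were called between these sorted populations at D2 (0.00491% of all genes), D4 (0.266%) or D6 (1.32%). With no adjustment, 1, 3 and 3 members had p under 0.05, as had 1031 of 20369, 1250 of 22946 and 3255 of 24203 genes. DESeq2's Wald test called 0, 4 and 3 members, against 1.34%, 2.48% and 7.15% of genes. At D6 the log2 differences were 5.98 ± 1.95 for Cyp26a1 (adjusted p = 0.304), -4.33 ± 1.52 for Crabp1 (adjusted p = 0.341) and -3.28 ± 1.34 for Crabp2 (adjusted p = 0.371). At D4 they were 4.98 ± 1.21 (adjusted p = 0.267), -3.10 ± 1.06 (adjusted p = 0.714) and -3.52 ± 0.707 (adjusted p = 0.0584). Libraries of the same replicate number varied together at D4 (correlations of 0.204, 0.469 and 0.505) and only weakly at D6 (0.184, 0.198 and 0.123). With the replicate as a block, Cyp26a1, Crabp1 and Crabp2 were all called at D6 (adjusted p = 4.46e-25, 5.47e-17 and 3.57e-07). Crabp1 was called alone at D4 (adjusted p = 0.0211). The D6 block values are far below the adjusted p values given above for the same libraries. The reason was not tested, and their size is not relied on. In the fit without robust estimation, which had been seen before the robust fit was taken up, Cyp26a1 was called at D4 and D6 (adjusted p = 0.0332 and 0.0157), Crabp2 at D4 (adjusted p = 0.0294) and Crabp1 at D6 (adjusted p = 0.0321).

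**Figure D2:**
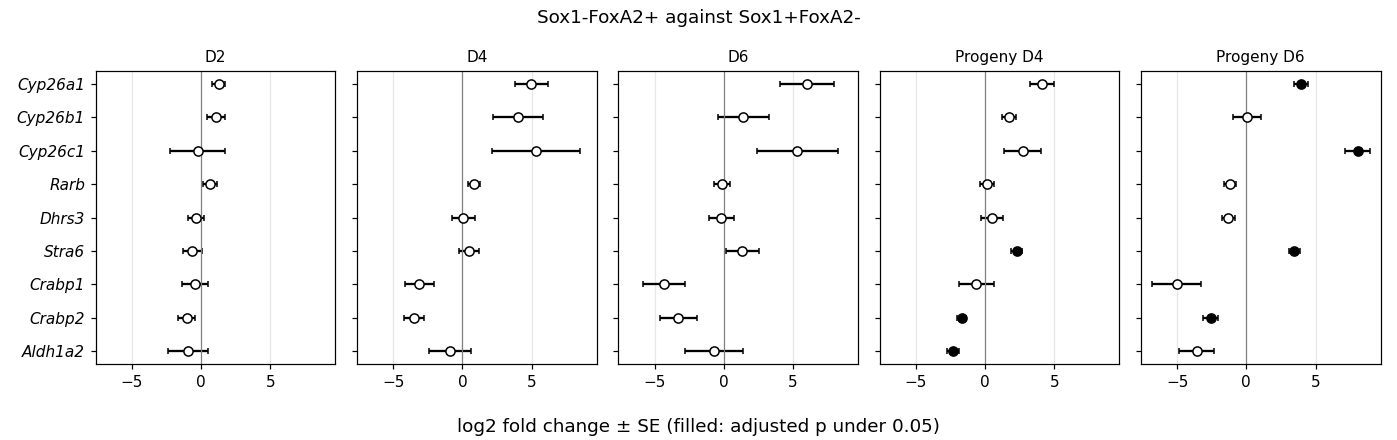
Log2 fold change ± SE of the 9 members in Sox1-FoxA2+ against Sox1+FoxA2- cells, for sorted cells at D2, D4 and D6 and for progeny at D4 and D6. Filled points had an adjusted p under 0.05. Cyp26a1 is positive in all 5 panels and filled in D6 progeny, at 3.93, while Crabp2 is negative in all 5.

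The change of the Cyp26a1 difference from D2 to D6 was tested directly and was not called (4.67 ± 1.75, adjusted p = 0.45), nor were the other members (0 of 9, 0.192% of all genes in edgeR, where 2 members and 2325 of 26096 genes had an unadjusted p under 0.05, and 0 in DESeq2, against 5.96% of genes). Within a population, D6 against D2 called 0 of 9 members in Sox1+FoxA2- cells (0.0% of all genes), 0 in Sox1-FoxA2+ cells (2.23%) and 0 in Sox1+FoxA2+ cells (0.126%). Without adjustment, 4, 2 and 2 members had p under 0.05 in edgeR, as had 2538 of 22328, 2812 of 19407 and 2973 of 21429 genes. DESeq2 called 2, 2 and 1 members, against 4.27%, 8.04% and 8.15% of genes. Dhrs3 had log2 differences of -2.84 ± 0.552 (adjusted p = 0.144) in Sox1+FoxA2- and -2.65 ± 0.735 (adjusted p = 0.0906) in Sox1-FoxA2+ cells. Its D6 libraries in these populations, at 346, 1132 and 337 and at 523, 122 and 899, all lay below the D2 libraries of the same gate. Among RA target genes, 4 of 13 fell in Sox1-FoxA2+ cells from D2 to D6 and 0 rose. Of these, Stra8 fell by 4.89 ± 0.5 (adjusted p = 9.21e-05) and Prdm1, a transcriptional repressor gene, fell by 3.37 ± 0.521 (adjusted p = 0.00107).

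The endoderm markers moved with Cyp26a1. At D6, 5 of 8 were higher in sorted Sox1-FoxA2+ than in Sox1+FoxA2- cells and 0 lower, with summed levels of 597100 to 1305000 against 5578 to 7316 normalized counts. Of 4 tested neuroectoderm markers, 2 were lower (Pax6 and Meis2), with summed levels of 3644 to 4052 against 14790 to 16150. Their part in the members' values was not tested.

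In progeny, which were grown for 2 or 4 days after the sort, several members differed. In D4 progeny 3 of 9 were called (1.97% of all genes). Stra6 was higher in Sox1-FoxA2+ progeny, at 1094, 1401 and 1278 against 233, 252 and 304 (log2 difference 2.28 ± 0.399, adjusted p = 0.00296). Aldh1a2 was lower, at 133, 209 and 298 against 1218, 1304 and 797 (-2.32 ± 0.431, adjusted p = 0.00486), and so was Crabp2, at 551, 703 and 822 against 2219, 1748 and 2901 (-1.70 ± 0.356, adjusted p = 0.0133). The Crabp2 call was lost in 2 of 6 cases with a library left out, up to adjusted p = 0.0824 without Sox1+FoxA2- progeny replicate 3. The groups did not overlap for these 3 genes. Cyp26a1, at 4794, 8599 and 8480 against 69.8, 293 and 853, reached a log2 difference of 4.12 ± 0.885 (adjusted p = 0.0732), and with the replicate block, where replicate numbers paired these libraries, it was called (adjusted p = 0.0493).

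In D6 progeny 4 of 9 members were called (6.91% of all genes), 3 higher in Sox1-FoxA2+ progeny and 1 lower. Cyp26a1 was at 9375, 8831 and 11250 against 725, 598 and 541 (log2 difference 3.93 ± 0.502, adjusted p = 0.000681). Cyp26c1 was at 415, 379 and 319 against 1.75, 1.25 and 0.0 (8.03 ± 0.873, adjusted p = 4.71e-05). The Sox1+FoxA2- progeny held 4 counts of Cyp26c1 in all, and the ratio of means was 371, with an exact 95% Poisson interval on these 4 counts of 145 to 1360 that covers counting error only. Stra6 was at 1162, 2693 and 3168 against 273, 191 and 141 (3.47 ± 0.419, adjusted p = 0.000126), and these 3 genes did not overlap between the groups.

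Crabp2 was lower in the D6 Sox1-FoxA2+ progeny, at 41.4, 194 and 171 against 1050, 640 and 658 (-2.58 ± 0.545, adjusted p = 0.00792). This call was lost without Sox1+FoxA2- progeny replicate 1 (adjusted p = 0.0745). Aldh1a2 was at 0.0, 220 and 301 against 1938, 2149 and 1921 and did not overlap, but it was not called (-3.59 ± 1.26, adjusted p = 0.175). In a single fit of all 57 libraries 0 members were called in these progeny comparisons, on D4 or D6. The test of whether the difference changed between D6 sorted cells and D6 progeny called 0 members (0.0196% of all genes), with 1 member, Stra6, at an unadjusted p under 0.05 and called by DESeq2. Of all genes, 2850 of 25515 had such a p and DESeq2 called 4.23%.

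In D6 Sox1-FoxA2+ progeny 4 of 14 tested target genes fell and 0 rose against Sox1+FoxA2- progeny, led by Nr2f2 (-3.19 ± 0.416, adjusted p = 0.000548) and Nr2f1 (-3.19 ± 0.499, adjusted p = 0.000899), the COUP-TF genes. Among the receptors and cofactors, Nrip1, Rara and Rxra fell. All 8 endoderm markers were higher and 3 of 4 tested neuroectoderm markers lower in the same comparison. The endoderm markers include Foxa2, whose reporter set the gate. Meis2 is on both the target and the neuroectoderm list and is counted in each. In D4 Sox1-FoxA2+ progeny 3 of 14 tested target genes were lower and 0 higher than in Sox1+FoxA2- progeny. They were Nr2f1 (-3.15 ± 0.531, adjusted p = 0.00201), Nr2f2 (-1.56 ± 0.288, adjusted p = 0.00477) and Meis2 (-1.31 ± 0.3, adjusted p = 0.0241). Of 19 tested enzymes and carriers 1 was called there. This was Rdh10, which oxidises retinol to retinaldehyde, and it was higher (2.53 ± 0.471, adjusted p = 0.00492).

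Against Sox1-FoxA2+ progeny of D6, the Sox1+FoxA2+ progeny had more Dhrs3 and Rarb and less Stra6, and 3 of 9 members were called (4.63% of all genes). Dhrs3 was higher, at 4435, 5925 and 1430 against 848, 492 and 623 (2.56 ± 0.513, adjusted p = 0.0162), Rarb was higher, at 3863, 4897 and 2278 against 1796, 770 and 619 (1.76 ± 0.421, adjusted p = 0.0334), and Stra6 was lower, at 741, 609 and 385 (-2.03 ± 0.394, adjusted p = 0.0077). With the replicate block, since replicate numbers paired these libraries, Dhrs3 was no longer called (adjusted p = 0.0533). Leaving out single libraries took the calls of Dhrs3 and Rarb away in 4 of 6 cases each, up to adjusted p = 0.104 and 0.137.

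Against Sox1+FoxA2- progeny, the Sox1+FoxA2+ progeny had more Cyp26c1, at 957, 469 and 170 normalized counts (log2 difference 8.52 ± 0.884, adjusted p = 0.000847), and more Cyp26a1, at 10754, 3788 and 2184 (3.09 ± 0.484, adjusted p = 0.035). These were 2 of 9 members against 0.18% of all genes. The Cyp26a1 call was lost in 4 of 6 cases with a library left out, up to adjusted p = 0.297 without Sox1+FoxA2- progeny replicate 2. Cyp26b1, at 2541, 4618 and 455, and Crabp2, at 211, 340 and 278, were not called against either single-positive progeny. Of the 8 endoderm markers, 2 (Foxa2 and Gata4) were higher than in Sox1+FoxA2- progeny, and all 8 were lower than in Sox1-FoxA2+ progeny. Foxa2 is the gene whose reporter set the gate.

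**Figure D3:**
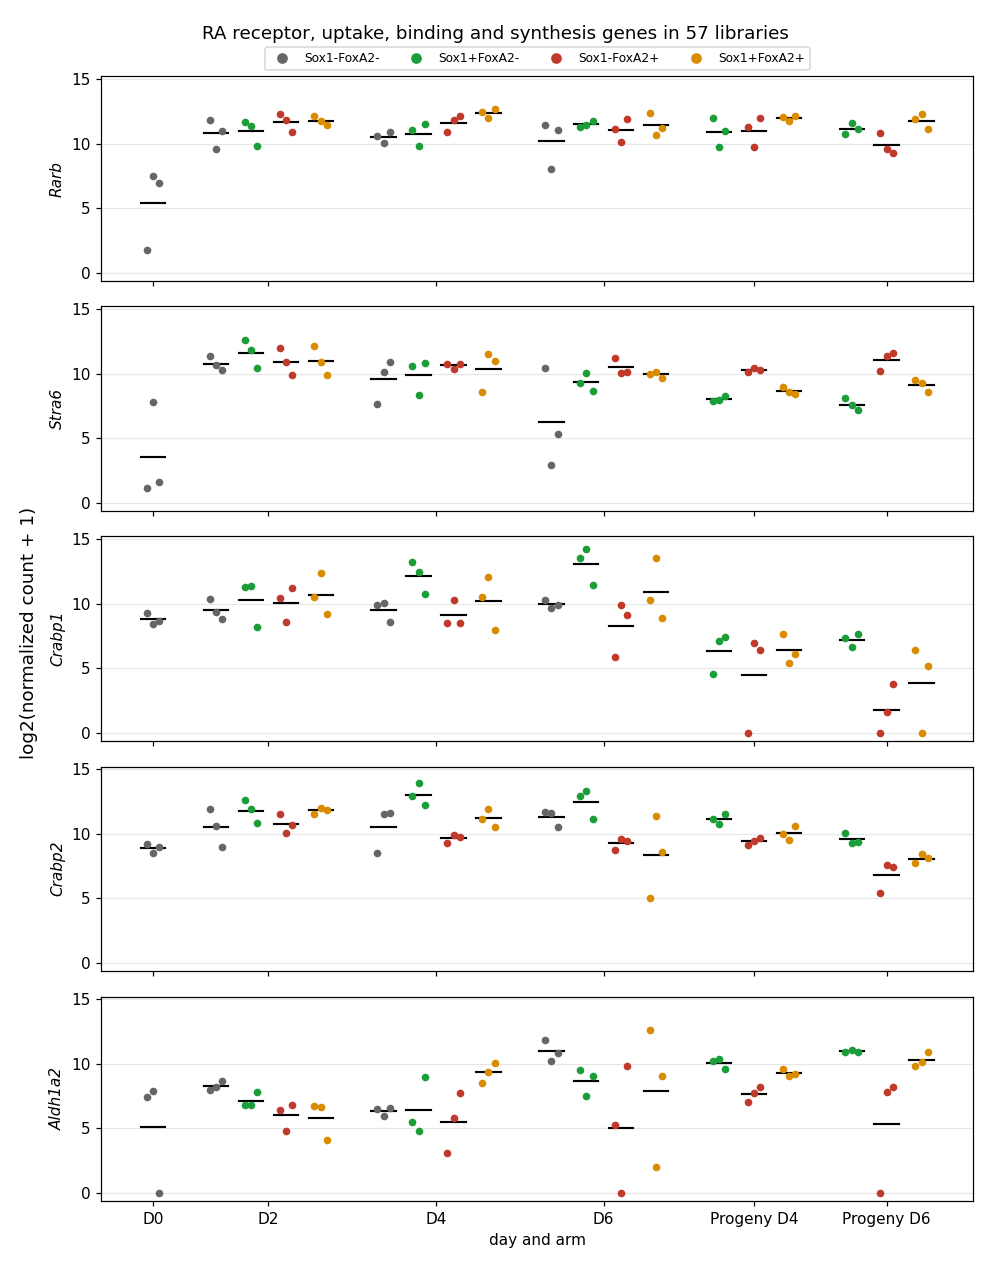
Normalized counts of Rarb, Stra6, Crabp1, Crabp2 and Aldh1a2 in 57 libraries on a log2(normalized count + 1) axis, by day and arm. Points are libraries, black lines are the means of 3 points on this axis and colours are the reporter populations. Crabp1 reaches 19555 in a sorted D6 Sox1+FoxA2- library and stays at or below 205 in all progeny libraries.

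Among the members, Crabp1 had the largest log2 difference between progeny and sorted cells on both days. In the 9 sorted D4 libraries of the reporter-positive populations it ran from 246 to 9802 (median 1498), and in the 9 D4 progeny from 0.0 to 205 (median 82.5). At D6 it ran from 59.0 to 19555 (median 1232) in sorted cells and from 0.0 to 197 (median 35.9) in progeny. Within each of the 3 populations the progeny lay below the sorted cells on both days, without overlap. The log2 differences were -4.24 ± 0.786 at D4 (adjusted p = 0.00309) and -6.41 ± 0.963 at D6 (adjusted p = 0.000433). Both calls stayed with each library left out in turn and with every other fit tried.

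Crabp2 was also lower in progeny, with log2 differences of -0.98 ± 0.289 at D4 (adjusted p = 0.0344) and of -2.21 ± 0.571 at D6 (adjusted p = 0.0138). These calls were lost in 5 of 18 and 1 of 18 cases with a library left out, up to adjusted p = 0.0837 without D4 Sox1+FoxA2- progeny replicate 2 and 0.0681 without sorted D6 Sox1+FoxA2+ replicate 2. The D6 medians of Crabp2 were 764 in sorted cells and 278 in progeny. The remaining calls were Stra6, lower in D4 progeny (-1.34 ± 0.356, adjusted p = 0.0173), and Dhrs3, higher in D6 progeny (1.52 ± 0.408, adjusted p = 0.0123). Thus 3 of 9 members were called at D4 (7.45% of all genes) and 3 at D6 (13.6%). These tests average over the 3 populations. At D4, progeny and sorted cells were free of overlap for Stra6 and Crabp2 only in Sox1+FoxA2- cells. In Sox1-FoxA2+ cells of D4 the progeny and sorted means were 1258 and 1607 for Stra6 and 692 and 813 for Crabp2. At D6, Dhrs3 was free of overlap only in Sox1+FoxA2+ cells, and Crabp2 overlapped only there. Cyp26b1 had medians of 572 in sorted cells and 2652 in progeny at D4 but was not called (2.36 ± 0.766, adjusted p = 0.0759). Sorted cells were gated on the day of collection and progeny only at D2. Replating, the serum basal medium and the lack of a second sort cannot be told apart in these comparisons.

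**Figure D4:**
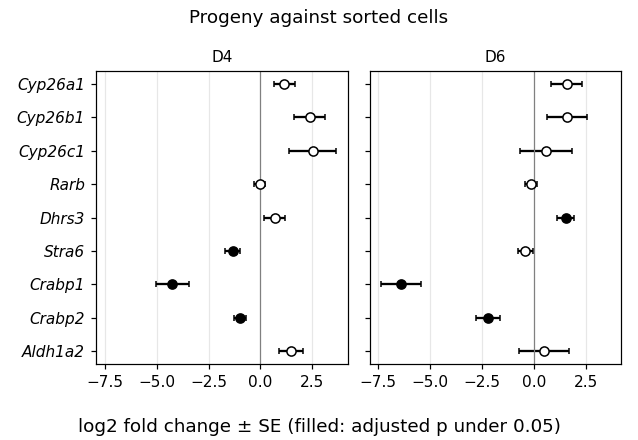
Log2 fold change ± SE of the 9 members in progeny against sorted cells of the same day, over Sox1+FoxA2-, Sox1-FoxA2+ and Sox1+FoxA2+ populations, at D4 and D6. Filled points had an adjusted p under 0.05. Crabp1 is the farthest from 0 on both days, at -4.24 and -6.41.

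Some listed markers of neural crest and mesenchyme were higher in progeny than in sorted cells. Acta2 and Col1a1, 2 of 7 on that list, were higher at D4 and at D6. Sox10, Tfap2a, Twist1, Prrx1 and Pdgfra were not called on either day. The summed level of the 7 genes was 10140 to 89880 normalized counts in progeny and 463 to 24080 in the sorted D4 and D6 libraries of the same populations. Of 6 pluripotent markers, 4 were lower and 1 higher in D6 progeny. Among RA target genes, 4 of 14 were higher and 1 lower in D6 progeny, with Nr2f2 higher by 2.14 ± 0.346 (adjusted p = 0.000221) and Prdm1 lower (-2.43 ± 0.501, adjusted p = 0.00145). The cofactor gene Nrip1 was higher at D4 and D6, by 1.45 ± 0.222 at D6 (adjusted p = 7.57e-05). The part of these genes in the members' values was not tested.

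Over the 19 conditions, each member had its own order of levels. Cyp26a1 was highest in D6 Sox1-FoxA2+ progeny (9819 ± 1269) and next in sorted D6 Sox1-FoxA2+ cells (9090 ± 5753). Cyp26b1 was highest in D4 Sox1+FoxA2+ progeny (4117 ± 1414), Cyp26c1 (532 ± 398) and Dhrs3 (3930 ± 2289) in D6 Sox1+FoxA2+ progeny, and Rarb in sorted D4 Sox1+FoxA2+ cells (5440 ± 1262). Sorted Sox1+FoxA2- cells were highest in Stra6 at D2 (3700 ± 2387), in Crabp1 at D6 (11344 ± 8408) and in Crabp2 at D4 (9339 ± 5367), and Aldh1a2 was highest in D6 Sox1-FoxA2- cells (2283 ± 1325). Neighbours in these orders mostly did not differ beyond their spread: of 18 neighbouring pairs, 0 were free of overlap for Cyp26b1, Cyp26c1 and Aldh1a2, 2 for Crabp2 and 1 for each other member. For Cyp26a1, Rarb and Dhrs3 that pair was D0 and the condition just above it.

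As a description over the 19 condition means, which share the D0 step, the closest members to each other were Dhrs3 and Rarb (Pearson r = 0.885, Spearman rho = 0.453), Cyp26b1 and Dhrs3 (0.833, rho = 0.688) and the neighbouring genes Cyp26a1 and Cyp26c1 (0.812, rho = 0.849). The farthest were Crabp1 and Cyp26c1 (-0.597, rho = -0.577). Among all genes with a mean of at least 100 normalized counts in a condition, those most like Cyp26a1 were Agrn (r = 0.889), Tspan9 (0.877) and Plod3 (0.873). Those most like Dhrs3 were Tshz1 (0.955), Rasl10b (0.948) and Zadh2 (0.931), and those most like Rarb were Zfp362 (0.929), Frk (0.926) and Rcan2 (0.921). Crabp1 was most like Rims2 (0.941), Rnf144a (0.935) and Tenm4 (0.923), and Crabp2 most like Tdrkh (0.887), Hdgfl3 (0.866) and Syt7 (0.859). For Cyp26b1 they were Krt20 (0.859), Ptges (0.856) and E2f6 (0.84), and for Stra6 Erlin1 (0.885), Polq (0.83) and Mogs (0.811). For Aldh1a2 they were Fnbp1 (0.879), Grem1 (0.858) and Nfib (0.854), and for Cyp26c1 Slc38a10 (0.858), mt-Nd5 (0.853) and mt-Nd6 (0.831). Cyp26c1 was at 0 in 16 of the 57 libraries (median 109 normalized counts), so its correlations rest in part on values at the floor.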

How the data were processed

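The 57 RNA-seq libraries were made with the SMART-Seq Stranded Kit. The deposited values are raw counts per gene, which the authors obtained with STAR, SAMtools and featureCounts on GENCODE M21 (GRCm38). Of the nonzero counts 80.6% are even, and whether both mates of a fragment were counted is not given in the sources used here. Another 92 lines without a gene name, with 0 counts in all, were dropped. Genes were tested with edgeR 4.0.16 in R 4.3.3 (TMM, filterByExpr set to at least 10 counts and 15 in total, quasi-likelihood test with robust estimation, prior count 0.125), two-sided, in 18 comparisons, with Benjamini-Hochberg adjustment over all genes tested and calls at adjusted p under 0.05. The populations of a day were fitted together, progeny against sorted cells with the gate as a term, and Sox1-FoxA2- cells over D0 to D6. Robust estimation follows an earlier analysis of these libraries. It was taken up after the fit without it had been seen, and that fit is given as an added alternative.

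Levels are counts over size factors of DESeq2 1.42.0. The members and the gene lists were chosen with earlier results of these data known. Text names all members, other listed RA genes that were called (up to 5 per comparison by smallest adjusted p; counts name the rest), and the 3 genes most like each member. Replicate numbers were taken to pair libraries where all 3 correlations of same-numbered deviations over 5000 genes were above 0.1, in 5 comparisons: Sox1-FoxA2- D6 against D2, Sox1-FoxA2+ against Sox1+FoxA2- at D4, D6 and in D4 progeny, and Sox1+FoxA2+ against Sox1-FoxA2+ in D6 progeny. Alternatives were DESeq2's Wald test, its size factors in edgeR, no filter, a replicate block, all 57 libraries in 1 fit, each library left out, TMM-scaled CPM for levels and Spearman correlations. The test was checked on simulated data. Promoters came from RefSeq (GRCm38.p6). Summaries and figures used pandas 2.3.3 and matplotlib 3.10.9 under Python 3.11.15. Results for some listed genes are not reported here.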

Additional observations from a re-analysis of the deposited data

How the results depend on the processing

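The 25 calls of members among 162 tests all held their direction. All 25 stayed past the threshold with DESeq2's Wald test, DESeq2 size factors in edgeR, no filter and no robust estimation (the last seen before the robust fit was taken up, and listed as an alternative after seeing the data), 22 with the replicate block and 9 with all 57 libraries in 1 fit. Over 267 refits with a library left out, 233 calls stayed and 34 were lost. The cause was not tested.

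The number of members called moved with the fit, and the share of all genes called is given in brackets. For Sox1-FoxA2- cells, D2 against D0 gave 1 call, and 7 with no filter (3.25%), 6 with DESeq2 (8.17%), 4 with all libraries (0.986%), 4 without robust estimation (1.41%) and 0 with the replicate block (3.24%). D6 against D0 gave 1, and 7 (5.43%), 6 (14.8%), 3 (2.6%), 4 (4.02%) and 0 (5.69%) in the same order. D6 against D2 gave 0, and 2 with no filter (0.872%). The mean of the D2 populations against D0 gave 5, and 8 with no filter (8.15%) or DESeq2 (17.0%). From D2 to D6, Sox1+FoxA2- cells gave 0, and 2 with no filter (1.18%), DESeq2 (4.27%) or the replicate block (0.657%). Sox1-FoxA2+ cells gave 0, and 1 with no filter (2.53%) and 2 with DESeq2 (8.04%), and Sox1+FoxA2+ cells gave 0, and 1 with DESeq2 (8.15%) or the block (0.992%). Sox1-FoxA2+ against Sox1+FoxA2- cells gave 0 at D4, and 4 with no filter (0.778%) or DESeq2 (2.48%), 2 without robust estimation (0.227%) and 1 with the block (0.801%). At D6 they gave 0, and 3 with DESeq2 (7.15%) or the block (3.32%), 2 without robust estimation (1.09%) and 1 with all libraries (1.74%). In D4 progeny 3 became 5 with no filter (2.26%) or DESeq2 (5.91%) and 0 with all libraries (0.179%), and in D6 progeny 4 became 8 (6.6%), 7 (15.4%) and 0 (0.888%). Sox1+FoxA2+ against Sox1-FoxA2+ progeny went from 3 to 6 with no filter (5.8%) and 0 with all libraries (0.257%), and against Sox1+FoxA2- progeny from 2 to 5 (1.73%) and 0 (0.0%). Progeny against sorted cells went from 3 to 5 with no filter at D4 (6.75%) and D6 (10.8%) and to 1 with all libraries at D4 (4.32%). The interaction of arm and population at D6 went from 0 to 1 with DESeq2 (4.23%), and that of day and population from 0 to 2 with no filter (0.559%).

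With a library left out, the counts ran from 0 to 1 for D2 and for D6 against D0 in Sox1-FoxA2- cells, from 3 to 6 for the D2 mean against D0, and from 0 to 1, 0 to 1 and 0 to 2 for D6 against D2 in the populations positive for Sox1 alone, FoxA2 alone and both. They ran from 0 to 1 for Sox1-FoxA2+ against Sox1+FoxA2- at D4, 2 to 5 in D4 progeny and 3 to 6 in D6 progeny, 1 to 5 and 1 to 2 for Sox1+FoxA2+ progeny against Sox1-FoxA2+ and Sox1+FoxA2- progeny, and 2 to 3 and 2 to 4 for progeny against sorted cells at D4 and D6. Of the 3 genes most like each member, Spearman's rho kept 0 for Cyp26a1 and Rarb and 1 for Cyp26b1, Dhrs3, Crabp1 and Aldh1a2. With 3 libraries per condition, a missed threshold does not show that levels were equal.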
